A study of Mus musculus with 2 samples.

Results

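The epithelial alarmins TSLP, IL-33 and IL-25 and the receptor chains that read them were examined in 2 skin tumour arrays of UVB-irradiated mice. The genes are the 3 ligand genes Tslp, Il33 and Il25 and the 5 receptor genes Crlf2, Il7r, Il1rl1, Il17rb and Il1rap, chosen by name, which makes 8 of 37321 gene names on the array. They are read by 18 probes, of which 12 were well above background on both arrays, and 7 of the 8 genes had at least 1 such probe. One array holds tumour RNA of male P2ry6+/+ (wild-type) mice and the other tumour RNA of male P2ry6-/- mice, which lack the UDP receptor gene P2ry6. Mice were 2 months old when irradiation of the shaved back began, at 180 mJ/cm2 for 10 weeks, with weekly steps of 10 mJ/cm2 up to 300 mJ/cm2 at week 22 and the same dose until week 40. Both groups carried the same UVB exposure, unirradiated skin was not analysed here, and how many tumours or mice went into an RNA sample is unstated in the sources used here.

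Alarmins are cytokines that epithelial cells release when a barrier is damaged. TSLP signals through a pair of chains, its own receptor CRLF2 and the IL-7 receptor alpha chain IL7R, and activates STAT5. IL-33 is stored in the nucleus, is freed from injured cells and binds ST2, the product of Il1rl1, which then recruits the accessory protein IL1RAP and MyD88. IL-25, a member of the IL-17 family, binds IL17RB paired with IL17RA. In skin, keratinocytes are a main source of TSLP and IL-33, and mast cells, group 2 innate lymphoid cells, dendritic cells and T cells are among the cells that respond, often with type 2 cytokines.

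With 1 array per genotype no test could be run, no p-value is given, and differences are described by size. A level is the log2 signal relative to the 75th percentile of that array, a difference is the level under the knockout label minus that under the wild-type label, for the same probe, and a gene was called when it was at least 2-fold apart. Probes differ in how brightly they read a transcript, so levels were not compared between probes. The number of arrays limits the precision. The error that could be measured is technical: the difference varied with an SD of 0.12 between replicate spots of one probe (293 probes) and with an SD of 0.38 between probes of one gene (6731 genes). Each member probe had 1 spot, and the error given with it is the scanner software's own estimate for that spot, which covers the reading of the spot and no difference between animals. P2ry6 itself read 364 and 137 signal units at its 2 probes on the array labelled wild-type, and 835 and 318 on the other. The array labelled knockout was 2.44-fold higher (1.29 ± 0.01, SD, n = 2 probes). On a scale set by 8 spike-in control probes the difference was 0.83, short of 2-fold and in the same direction. The targeted gene thus went against the label. The sources used here leave the deleted part of P2ry6 unstated, and probes outside it could not check the label, so both arrays are called by what they are labelled.

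Sequences for Il33 and Il1rl1 are shown first: 1 of the Il33 probes, then the stretches upstream of both genes, which no probe reads. One Il33 probe joins stretches of the transcript that lie apart on the genome (chr19:30024240-30026507, plus strand, mm9) and so reads spliced RNA.
Il33 spliced probe: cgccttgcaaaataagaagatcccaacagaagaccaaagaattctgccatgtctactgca

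Upstream sequences are shown for Il33 and Il1rl1, because each is listed with more than 1 transcription start. Windows of 300 bases, 250 before and 50 after a start, were matched by symbol for 6 of the 8 genes (8 windows; RefSeq, GRCm38.p6). Tslp and Il25 were not matched. Both strands were searched for 4 motifs, and no 2 matches in these windows overlap. The AP-1 letters TGANTCA occur in 7.81% of all 32851 windows of this length. The STAT letters TTCNNNGAA occur in 8.30%, the GATA letters GATAAG in 7.44% and the E-box letters CACGTG in 7.15%. Capitals mark a match, and the 250 bases before each start are printed 5′ to 3′ on the strand of the gene.
Il33 at chr19:29924863-29925112, plus strand: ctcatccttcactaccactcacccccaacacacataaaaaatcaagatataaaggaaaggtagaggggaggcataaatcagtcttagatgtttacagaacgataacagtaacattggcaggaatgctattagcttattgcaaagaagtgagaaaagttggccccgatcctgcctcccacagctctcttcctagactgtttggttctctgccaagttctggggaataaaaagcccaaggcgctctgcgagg
Il33 at chr19:29945540-29945789, plus strand: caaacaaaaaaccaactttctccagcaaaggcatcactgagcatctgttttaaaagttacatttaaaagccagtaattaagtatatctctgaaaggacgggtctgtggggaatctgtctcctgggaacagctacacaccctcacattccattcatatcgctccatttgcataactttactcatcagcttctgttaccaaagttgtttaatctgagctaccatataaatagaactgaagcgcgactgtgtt
Il1rl1 at chr1:40429320-40429569, plus strand: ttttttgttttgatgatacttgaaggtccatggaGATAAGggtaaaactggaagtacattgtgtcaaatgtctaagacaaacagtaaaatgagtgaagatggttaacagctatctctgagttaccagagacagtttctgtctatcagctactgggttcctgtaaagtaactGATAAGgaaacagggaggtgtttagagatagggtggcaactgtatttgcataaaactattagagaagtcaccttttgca
Il1rl1 at chr1:40439379-40439628, plus strand: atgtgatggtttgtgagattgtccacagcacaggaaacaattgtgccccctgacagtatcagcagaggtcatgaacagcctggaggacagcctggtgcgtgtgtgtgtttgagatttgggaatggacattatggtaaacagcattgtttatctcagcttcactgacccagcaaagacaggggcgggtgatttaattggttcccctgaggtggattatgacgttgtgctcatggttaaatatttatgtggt
Neither Il33 window held any of the 4 sets of letters. The first Il1rl1 window held GATAAG at positions −216 and −79 from the start, and the second held none. Among the other receptor genes, the Il17rb window held an AP-1 match at −104 and a GATA match at 39, the Il7r window held a STAT match at −142, and the Crlf2 and Il1rap windows held none. A match is a description of letters in these windows and says nothing of whether a factor was bound.

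Tslp was the ligand gene with the greatest difference. Its probe (chromosome 18, 32978885 to 32978944, mm9) read 2421 ± 242 signal units on the array labelled wild-type and 121 ± 13 on the array labelled knockout (± scanner error, 1 spot each). The tumour labelled knockout was thus the low one, with a level of −1.43 against 2.80, and both readings were well above background. The difference was −4.24 ± 0.21 (scanner error), or 18.8-fold lower. Of 19873 genes measured on both arrays, 16 had a lower difference (0.0805%). The array carries 1 probe for Tslp, so no second probe checks this value.

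Il33 was also lower, at both of its probes. The probe that lies further 5′ joins stretches of the transcript that are 2268 bases apart from end to end on the genome (chromosome 19, 30024240 to 30026507, mm9), so it reads spliced RNA. It is the one member probe that crosses an intron, and it read 654 ± 65 signal units on the array labelled wild-type and 122 ± 13 on the array labelled knockout (± scanner error), a difference of −2.33 ± 0.21, or 5.03-fold lower. The second probe (chromosome 19, 30035101 to 30035160, mm9) read 6389 ± 639 and 777 ± 78, a difference of −2.96 ± 0.20, or 7.76-fold lower. Both probes are assigned by the array files to transcript variant 1, and both were higher on the array labelled wild-type. The gene as a whole differed by −2.64 ± 0.44 (SD, n = 2 probes), or 6.25-fold lower, and 70 of the 19873 measured genes had a lower difference (0.352%).

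Il25 could not be compared. Its probe (chromosome 14, 55554319 to 55554378, mm9) read 4.05 signal units on the array labelled wild-type and 8.58 on the array labelled knockout, and neither reading was well above background. The lowest non-control probe that was well above background read 17.7 and 17.4 units on the 2 arrays, so Il25 was not detectable at this sensitivity in either tumour.

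**Figure D1:**
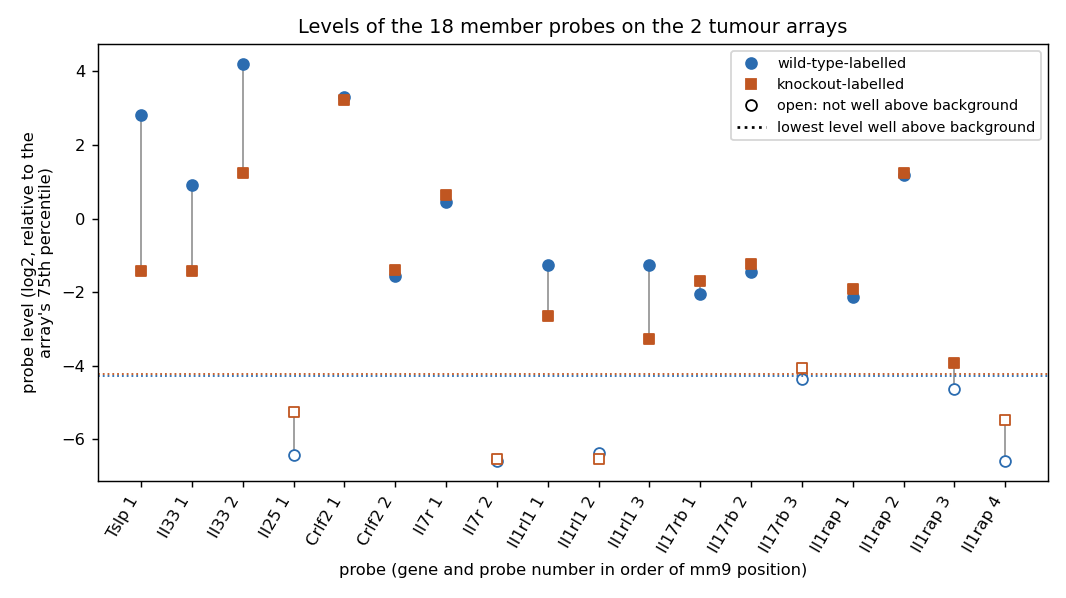
Level of each of the 18 probes (log2, relative to the array's 75th percentile) on the arrays labelled wild-type (circles) and knockout (squares), 1 array each, with a line joining the 2 readings of a probe and open symbols for readings not well above background. Dotted lines mark each array's lowest level well above background; only the 2 readings of one probe are comparable, and the long lines belong to Tslp, Il33 and Il1rl1.

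The receptor chains for TSLP did not follow their ligand. Crlf2, which gives the receptor its specificity, was read by 2 probes. The brighter (chromosome 5, 109983740 to 109983799, mm9) read 3422 ± 342 signal units on the array labelled wild-type and 3022 ± 302 on the array labelled knockout, a difference of −0.09 ± 0.20 (scanner error). The dimmer (109986028 to 109986087) read 117 ± 12 and 125 ± 13, a difference of 0.17 ± 0.21. Neither difference was larger than its own reading error, and the gene differed by 0.04 ± 0.19 (SD, n = 2 probes). Il7r, the chain shared with the IL-7 receptor of lymphocytes, read 477 ± 48 and 510 ± 51 at its measured probe (chromosome 15, 9436822 to 9436881, mm9), a difference of 0.18 ± 0.20 that also lay within the reading error. A second Il7r probe, designed on a thymus cDNA, was not well above background on either array.

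The IL-33 receptor gene Il1rl1 was the receptor gene with the greatest difference. Its product exists as a membrane form that signals and as a soluble form that traps IL-33, and separate probes are assigned by the array files to the transcripts of each. The probe for transcript variant 2, the soluble form (chromosome 1, 40504769 to 40504828, mm9), read 145 ± 15 signal units on the array labelled wild-type and 52.3 ± 6.6 on the array labelled knockout, a difference of −1.39 ± 0.23 (scanner error), or 2.62-fold lower. A probe for transcript variant 1, the membrane form (40522187 to 40522246), read 145 ± 15 and 33.8 ± 5.5, a difference of −2.01 ± 0.28, or 4.03-fold lower. Both measured probes were thus lower in the tumour labelled knockout. They varied with an SD of 0.44, close to the 0.38 found between probes of one gene over the array. The other variant 1 probe (40520014 to 40520073) was not well above background on either array, so the membrane form rests on 1 probe. A stricter filter on dim probes, at 2 times the lowest signal well above background, left only the variant 2 probe, at −1.39. The gene differed by −1.70 ± 0.44 (SD, n = 2 probes), or 3.25-fold lower, and 247 of 19873 genes had a lower difference (1.24%). Both readings on the array labelled knockout were dim, and under normexp background correction, which with its offset of 50 units compresses dim signals, the difference was −0.90 and no longer reached 2-fold.

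Il1rap, the accessory chain that Il1rl1 shares with the receptors for IL-1 and IL-36, differed by less than the reading error of its probes. The probe for transcript variant 1 (chromosome 16, 26717577 to 26717636, mm9) read 781 ± 78 signal units on the array labelled wild-type and 776 ± 78 on the array labelled knockout, a difference of 0.08 ± 0.20 (scanner error). The variant 2 probe (26701498 to 26701557) read 79.5 ± 9.3 and 86.9 ± 10.0, a difference of 0.21 ± 0.24. A variant 4 probe (26724859 to 26724918) was well above background only under the knockout label, at 21.5 against 13.9 units, which bounds that difference at at least 1.29-fold higher. The fourth probe was not well above background on either array. Over its 2 measured probes the gene differed by 0.14 ± 0.10 (SD).

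Il17rb, which binds IL-25, was measured although its ligand was not. Its probe on the RefSeq transcript (chromosome 14, 30809354 to 30809413, mm9) read 83.4 ± 9.3 signal units on the array labelled wild-type and 102 ± 11 on the array labelled knockout, a difference of 0.37 ± 0.22 (scanner error). A probe for a short form (30809514 to 30809573) read 126 ± 14 and 139 ± 15, a difference of 0.22 ± 0.22. The third probe was not well above background on either array. The gene differed by 0.29 ± 0.11 (SD, n = 2 probes), which is short of 2-fold and reads −0.17 on the spike-in scale. Il17ra, the chain that IL17RB pairs with, belongs to the list of common chains below and was named here after its value was seen. It differed by 0.50 at 1 probe, with levels of −2.33 under the wild-type label and −1.83 under the knockout label.

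Of the 7 measured genes 3 were 2-fold or more lower on the array labelled knockout, 0 were higher and 4 were neither. Over all 19873 measured genes 5.04% were 2-fold or more lower and 4.82% 2-fold or more higher, and the median difference was −0.06. On the spike-in scale 3123 genes were lower by that much and 320 higher. The median over the 7 genes was 0.04, because the group splits: Tslp, Il33 and Il1rl1 lay between −4.24 and −1.70, and Crlf2, Il7r, Il17rb and Il1rap between 0.04 and 0.29. The 4 receptor genes near 0 have no settled sign. On the spike-in scale every difference reads 0.46 lower, which puts Crlf2 at −0.42, Il1rap at −0.32, Il7r at −0.28 and Il17rb at −0.17. Tslp and Il33 were 2-fold or more lower under each of 9 alternative ways of processing and Il1rl1 under 8 of them.

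**Figure D2:**
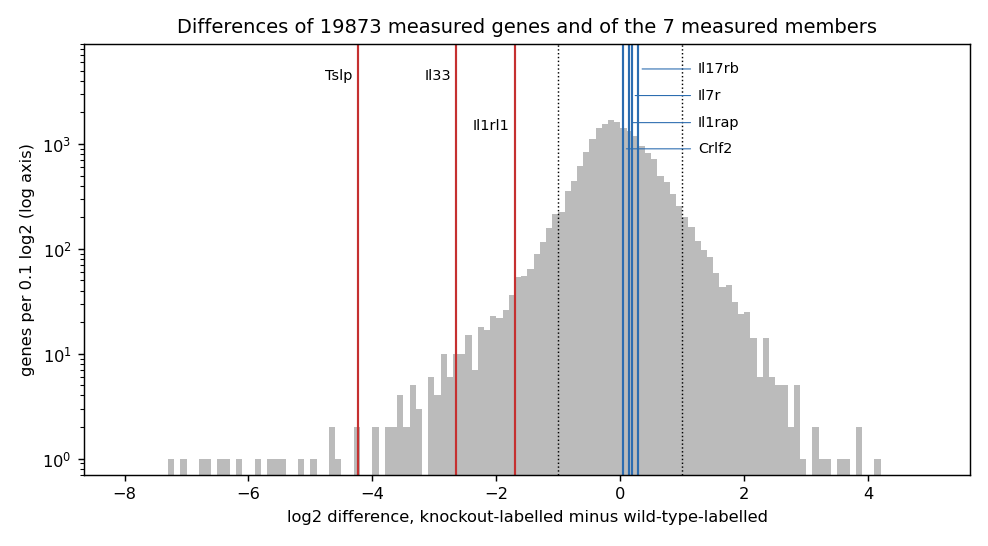
Histogram of the log2 difference (knockout label minus wild-type label) of 19873 measured genes in bins of 0.1, on a log count axis, with a vertical line at each of the 7 measured genes and dotted lines at 2-fold. Tslp (−4.24), Il33 (−2.64) and Il1rl1 (−1.70) lie in the lower tail, and the other 4 lie between 0.04 and 0.29.

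**Figure D3:**
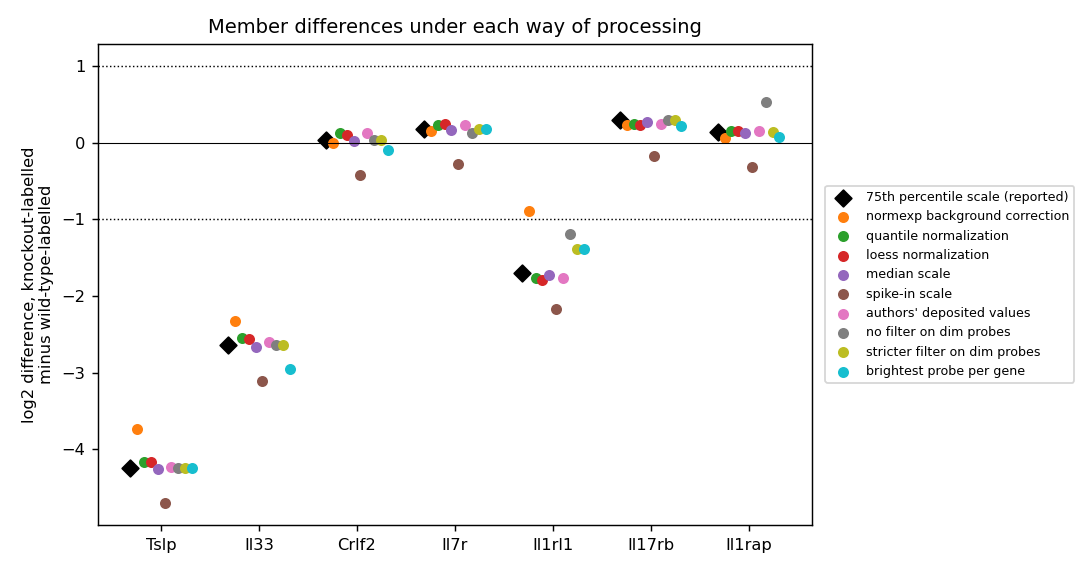
Log2 difference (knockout label minus wild-type label) of the 7 measured genes on the reported scale (black diamonds) and under 9 alternatives (coloured circles), with dotted lines at 2-fold. Tslp ranged from −4.70 to −3.74, Il33 from −3.11 to −2.32 and Il1rl1 from −2.16 to −0.90, while Crlf2, Il7r, Il17rb and Il1rap stayed between −0.42 and 0.53.

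Signalling components that these receptors share were read against the array-wide shares of 5.04% lower and 4.82% higher. Of 32 genes on a list of common chains, Janus kinases, STATs and the MyD88 and TRAF6 route, 32 were measured, 2 were lower by 2-fold or more, 0 were higher and 30 were neither (median −0.32, against −0.06 over all genes). The 2 were inhibitors of IL-1 receptor and Toll-like receptor signalling, Irak3 (−1.06 ± 0.80, SD, n = 2 probes) and Tollip (−1.03). Both lie at the threshold: 0 genes of the list were lower by 2-fold under normexp background correction, and 7 on the spike-in scale. In all, 25 of the 32 genes lay below 0 and 7 above. Over all measured genes 57.9% lay below the Crlf2 difference of 0.04, and the median was itself below 0.

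Relatives of the alarmins in the IL-1, IL-17 and IL-7 families were likewise read against the array-wide shares of 5.04% lower and 4.82% higher. Of 24 such ligand and receptor genes on the array 19 were measured, 3 were 2-fold or more lower, 1 higher and 15 neither (median −0.15). The 3 belong to the IL-36 group of keratinocyte cytokines: Il1f6, which encodes IL-36 alpha, at −1.62 ± 0.11 (SD, n = 2 probes), Il1f5, which encodes the IL-36 receptor antagonist, at −1.31 ± 0.25 (SD, n = 2 probes), and Il1f9, which encodes IL-36 gamma, at −1.10. The gene that was higher was Il18r1, a chain of the IL-18 receptor, at 1.11. Of this list 6 genes were lower and 0 higher on the spike-in scale. Il7, the other ligand that uses Il7r, and Il17a, Il17c, Il17f and Il18rap were not well above background on either array.

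Genes known to be induced in type 2 immunity, downstream of the alarmins, included some of the greatest differences. Of 38 on the array 19 were measured, and of those 6 were 2-fold or more lower, 0 higher and 13 neither (median −0.45). Over all measured genes the shares were 5.04% lower and 4.82% higher. The count lower was 4 under normexp background correction and under the stricter filter on dim probes, and 9 on the spike-in scale. Chil3, a chitinase-like lectin made by macrophages in type 2 immunity, was 29.9-fold lower under the knockout label (log2 difference −4.90). Il13ra2, a receptor that takes up IL-13 without the usual signal, was 25.2-fold lower (−4.66). Ccl11, the eosinophil attractant eotaxin, was 9.89-fold lower (−3.31), and Ccl8, an attractant for type 2 T cells, was 4.83-fold lower (−2.27). Il13ra2 and Ccl11 were dim under the knockout label, at levels of −3.36 and −3.64. The lowest level well above background there was −4.23. Chil4, a relative of Chil3, was well above background only under the wild-type label and was at least 283-fold lower under the other. The cytokine genes Il5, Il9 and Il13 were not well above background on either array, and Il4 differed by −0.45, so type 2 cytokine transcripts themselves gave little to compare. The list was drawn up with results of these data known, and nothing is called particular to it.

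Genes reported to induce or restrain alarmin expression in epithelium were read against the array-wide shares of 5.04% lower and 4.82% higher. Of 40 on the array 35 were measured, 3 were 2-fold or more lower, 0 higher and 32 neither (median −0.16). Fosl1, an AP-1 subunit, differed by −2.06 (4.16-fold lower), Spink5, the inhibitor of the kallikrein proteases that act upstream of Tslp, by −1.11, and the AP-1 subunit gene Junb by −1.06 ± 0.03 (SD, n = 2 probes). Under normexp background correction and under quantile and loess normalization 1 gene of the list was past 2-fold, and on the spike-in scale 10 were lower. On that scale 3123 of all 19873 measured genes were lower. Tlr3, a sensor of double-stranded RNA, was well above background only under the knockout label, at least 2.07-fold higher there.

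Proteases known to cut IL-33 or other alarmins differed in both directions, beside array-wide shares of 5.04% lower and 4.82% higher. Of 15 on the array 12 were measured, 3 were 2-fold or more lower, 1 higher and 8 neither (median −0.08). Those lower were granzyme B, Gzmb (6.15-fold lower), and the mast cell chymases Mcpt4 (5.78-fold) and Cma1 (5.55-fold). Gzmb was dim under the knockout label, at a level of −4.08 where the lowest level well above background was −4.23. The stricter filter on dim probes left 2 proteases lower. Cathepsin S, Ctss, a protease of antigen-presenting cells, was 2.02-fold higher, at the threshold. The neutrophil proteases Ctsg and Prtn3 were not well above background on either array.

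**Figure D4:**
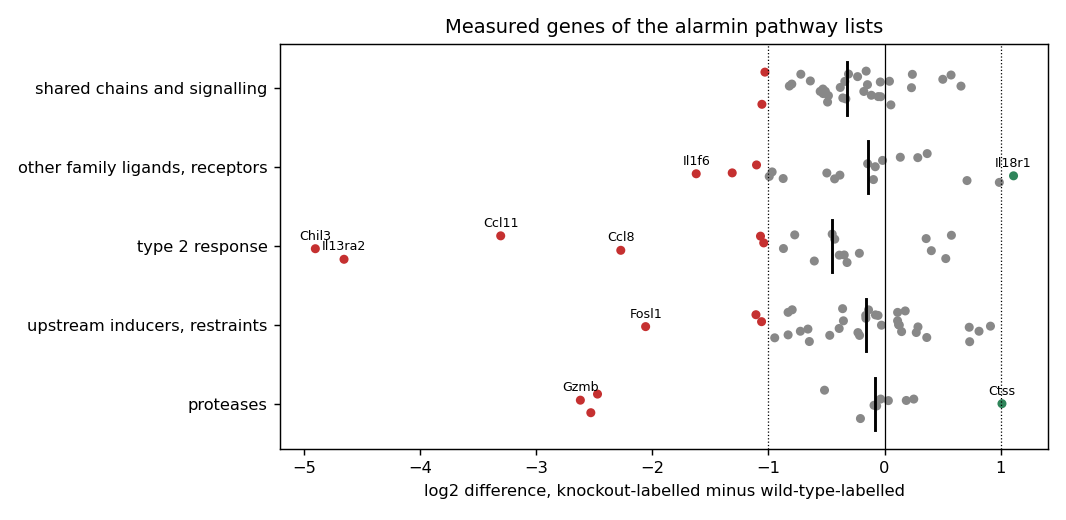
Log2 difference (knockout label minus wild-type label) of each measured gene of the 5 pathway lists, 1 point per gene, with a black bar at the list median, dotted lines at 2-fold, red for 2-fold or more lower and green for 2-fold or more higher. Chil3, Il13ra2 and Ccl11 lie furthest to the left, and the list medians lie between −0.45 and −0.08.

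The cells that make and read alarmins were followed by marker genes, since in bulk tumour RNA fewer cells of a type and less RNA per cell cannot be told apart. Marker counts stand beside array-wide shares of 5.04% lower and 4.82% higher. Keratinocyte markers, which define the labelled tissue, were measured in both tumours (10 of 10 basal and 13 of 13 suprabasal). A summed signal adds the signals of a list's measured probes, not scaled between the arrays, so the brightest probes weigh most in it. Beside Tslp and Il33, suprabasal keratinocyte markers were lower: 7 of 13 measured markers were 2-fold or more lower and 0 higher (median −1.03), and their summed signal was 948242 units on the array labelled wild-type and 525585 on the array labelled knockout. The transglutaminase gene Tgm3 differed by −2.17 ± 2.18 (SD between its probes), the protease gene Casp14 by −1.85, the desmosomal cadherin gene Dsg1a by −1.66 and the suprabasal keratin gene Krt1 by −1.62. Markers of hyperproliferative keratinocytes had 3 of 11 2-fold or more lower and 0 higher (median −0.90; summed signal 1860700 and 1286460), namely Serpinb3a (−2.50), Sprr3 (−2.14) and Sprr2d (−1.62), the last pair encoding cornified envelope proteins. Basal keratinocyte markers had 0 of 10 lower and 1 higher, the basal keratin gene Krt5 at 1.66, with a median of 0.05 that turned to −0.41 on the spike-in scale and −0.09 with the brightest probe per gene. Sebaceous gland markers had 10 of 11 2-fold or more lower and 0 higher (median −3.57; summed signal 130021 and 29100). On the spike-in scale 12 suprabasal and 7 hyperproliferative markers were lower by 2-fold, beside 3123 of all 19873 measured genes. The suprabasal median was −0.85 under quantile normalization, −0.88 under loess normalization and −0.87 with the authors' deposited values. Under each of them 6 suprabasal markers were lower by 2-fold. The hyperproliferative median was −0.62 under loess normalization. Sprr3 was dim under the knockout label (level −3.61, lowest well above background −4.23), and the stricter filter on dim probes left 2 hyperproliferative markers lower. Among sebaceous markers the lipid synthesis genes Fa2h (−7.06), Awat1 (−6.77), Elovl3 (−6.65) and Dgat2l6 (−6.39) differed most. Dgat2l6 was dim under the knockout label, at a level of −3.42. The stricter filter left 9 sebaceous markers lower, with a median of −2.84. Endothelial cells and fibroblasts, which can also hold IL-33, had 0 of 10 and 0 of 10 markers 2-fold or more lower and 0 and 1 higher, the latter being the matrix gene Dpt (1.32), with medians of 0.23 and 0.11 that turned to −0.23 and −0.36 on the spike-in scale; the fibroblast median was −0.11 with the brightest probe per gene. The part of these cells in the Tslp and Il33 differences was not tested.

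Beside Il1rl1, which mast cells, group 2 innate lymphoid cells and regulatory T cells carry, mast cell markers had 4 of 8 2-fold or more lower and 1 higher (median −0.87; summed signal 5641 and 4880). The mast cell median was −0.34 under normexp background correction and −1.33 on the spike-in scale, and 0 markers were higher by 2-fold under either. The count lower was 3 under normexp background correction and under the stricter filter on dim probes, and 5 on the spike-in scale. Over all measured genes on the reported scale 5.04% were 2-fold or more lower and 4.82% higher. Cpa3, the mast cell carboxypeptidase, was 4.67-fold lower and Fcer1a, part of the high-affinity IgE receptor, 2.10-fold lower, next to Mcpt4 and Cma1. Fcer1a was dim under the knockout label (level −3.83, lowest well above background −4.23). The histamine-forming enzyme gene Hdc was 2.04-fold higher, Kit differed by 0.69 ± 0.63 (SD, n = 2 probes) and the tryptase gene Tpsb2 by 0.19. Tpsab1 was well above background only under the knockout label (at least 1.30-fold higher there), and Ms4a2 only under the wild-type label (at least 1.27-fold). Group 2 innate lymphoid cell markers had 7 of 14 measured, 2 2-fold or more lower and 1 higher (median −0.60; summed signal 31303 and 17127), but the narrow markers Klrg1, Il5, Il13, Il9r, Ptgdr2 and Nmur1 were not well above background on either array. With the spike-in scale 4 were lower and 0 higher. The 2 lower on the reported scale were Areg (−1.79) and Rora (−1.57), which keratinocytes express as well. Regulatory T cell markers had 0 of 5 at least 2-fold apart (median 0.09, summed signal 7087 and 8660). The median turned to −0.38 on the spike-in scale, where 2 were 2-fold or more lower, and to −0.41 without a filter on dim probes. On the reported scale Foxp3 differed by −0.54 and Ikzf2 by −0.89, and the other 3 lay above 0. Tigit and Ccr8 were not well above background on either array, and Ctla4 was so only under the wild-type label. Basophil and eosinophil markers had 1 of 3 measured 2-fold or more lower, the basophil protease gene Mcpt8 at 3.21-fold, and 0 higher (median −0.39, turning to 0.05 without a filter on dim probes; summed signal 193 and 120), and Cd200r3, Epx, Prg2 and Il5ra were not well above background. Mcpt8 was dim under the knockout label (level −3.49, lowest well above background −4.23). Of the basophil and eosinophil markers 0 were lower under normexp background correction and under the stricter filter on dim probes. Without a filter on dim probes 2 were lower. The part of any of the cell types above in the Il1rl1 difference was not tested.

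Beside Crlf2 and Il7r, which dendritic cells and T cells carry, markers of antigen-presenting cells had medians above 0, by amounts that depend on the scale. Over all measured genes 4.82% were 2-fold or more higher and 5.04% lower. Dendritic and Langerhans cell markers had 5 of 9 2-fold or more higher and 1 lower (median 1.03; summed signal 10099 and 18341). Those higher included H2-Aa (1.27), which encodes an MHC class II chain, Itgax (1.21), the MHC class II regulator Ciita (1.14) and the transcription factor gene Batf3. The Langerhans cell lectin gene Cd207 differed by −1.66, and 3 measured markers of this list were neither. Its markers Zbtb46, Cd209a, Clec9a and Xcr1 were not well above background on either array, and Irf4 was so only under the wild-type label. Macrophage and monocyte markers had 7 of 14 2-fold or more higher and 1 lower (median 1.02; summed signal 40356 and 41358). The fractalkine receptor gene Cx3cr1 differed by 2.78, the IgG receptor gene Fcgr1 by 1.71, the phagocytic receptor gene Mertk by 1.35 and the endotoxin receptor gene Cd14 by 1.33, against −1.07 for the mannose receptor gene Mrc1. On the spike-in scale 0 dendritic and 2 macrophage markers were higher by 2-fold (medians 0.57 and 0.56), and under normexp background correction 2 and 4 (medians 0.58 and 0.73). T cell markers had 1 of 10 2-fold or more lower, the adhesion gene Cd2 (−1.29), and 0 higher (median −0.07, turning to 0.06 under normexp background correction; summed signal 3948 and 3957). The part of these cells in the values of Crlf2 and Il7r was not tested.

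**Figure D5:**
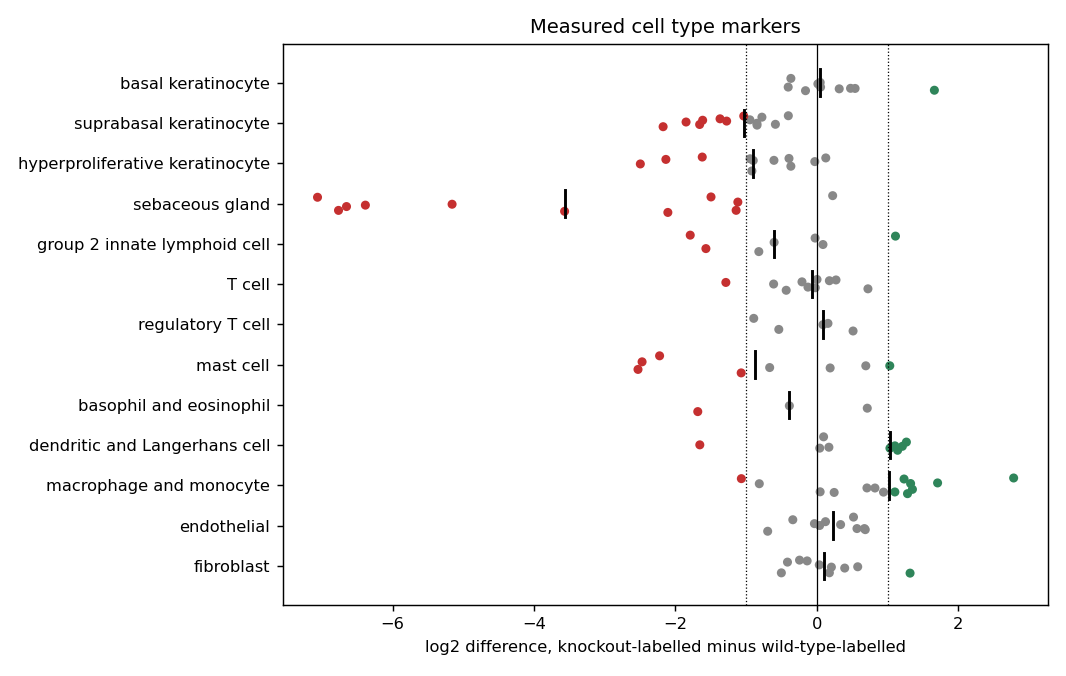
Log2 difference (knockout label minus wild-type label) of each measured marker in 13 cell type lists, 1 point per gene, with a black bar at the list median, dotted lines at 2-fold, red for 2-fold or more lower and green for 2-fold or more higher. Sebaceous gland markers have the lowest median (−3.57), and dendritic and macrophage markers have medians of 1.03 and 1.02, which are 0.57 and 0.56 on the spike-in scale.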

How the data were processed

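Single-colour Agilent arrays of 2 tumour RNA samples, 1 per genotype, were used. The authors read the intensity of each spot with Agilent Feature Extraction 10.7.1.1 (submitters' processing notes; also named per the file headers), with background subtraction and detrending within the array and no scaling between arrays. Per the labels' protocols, Cy3-labelled cRNA came from 0.2 µg of RNA. Both arrays lay on 1 slide in 1 scan. The authors also deposited log2 values, whose 2 columns have the same median (4.96) and sorted values that differ by at most 0.00104, as after quantile normalization; their method goes unstated in the sources used here.

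Non-control spots without outlier marks gave log2 processed intensity minus the array's 75th percentile (signals of 347 and 327 units). A probe counted as measured if most spots for it exceeded background clearly on both arrays, and a gene is the mean of its measured probes. A gene above background on 1 array has a bound, set against whichever is higher on the dim array, its lowest clearly detected signal or the reading of that probe. Names came from the array files, with 1535 probes updated through RefSeq accessions (GRCm38.p6). Probe positions are the files' own (mm9), with no exon annotation of that build used here. Gene lists of 5 pathway groups and 13 cell types, the named genes (up to 4 per list and direction past 2-fold) and the 9 alternatives were chosen with earlier results of these data known. Il17ra, Il4, Tpsb2, Kit, Foxp3 and Ikzf2 fall outside that naming rule and were named after their values were seen. The planned list of genes with levels nearest to Tslp and Il33 is not reported, because levels of different probes are not comparable. No test, replicate check or leave-one-out is possible with 1 array per group. R 4.3.3 with limma 3.58.1 and Python 3.11.15 were used. The 75th percentile scaling, the mean over probes and the 2-fold call were tested on simulated data. The background filter, the bounds and the alternatives were not.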

Additional observations from a re-analysis of the deposited data

How the results depend on the processing

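Tslp and Il33 were 2-fold or more lower on the array labelled knockout under all 9 alternatives, and Il1rl1 under 8. Settings that moved a value by more than the SD between probes of a gene (0.38), or a count by over 1.5 times, were as follows. Normexp background correction gave −3.74 for Tslp and −0.90 for Il1rl1, and left 578 genes 2-fold or more lower and 368 higher on the whole array. In the lists it left 0 signalling genes and 1 upstream gene lower and 0 relatives higher. On the spike-in scale, where every difference reads 0.46 lower, Tslp was −4.70, Il33 −3.11, Il1rl1 −2.16, Crlf2 −0.42, Il1rap −0.32, Il7r −0.28 and Il17rb −0.17, the median of the members −0.42, and 3123 genes were 2-fold or more lower and 320 higher. There 7 signalling genes, 6 relatives and 10 upstream genes were lower, 0 relatives and 0 proteases were higher, and the medians were −0.78 (signalling), −0.61 (relatives), −0.91 (type 2), −0.62 (upstream) and −0.54 (proteases). Without a filter on dim probes Il1rl1 was −1.19 and Il1rap 0.53, 1 member was 2-fold or more higher (Il25, from readings not above background), and 2135 genes were lower and 2244 higher. That setting also gave 1 signalling gene lower, and 2 type 2 genes and 1 upstream gene higher. Loess normalization, quantile normalization and the deposited values of the authors each gave 1 signalling gene and 1 upstream gene lower and 2 relatives higher. The brightest probe gave 1 signalling gene and 2 relatives higher, and the median scale 0 proteases higher. P2ry6 was 0.83 on the spike-in scale, short of 2-fold. On the marker lists 44 comparisons moved and 307 did not. The cause of these shifts was not tested, except that the spike-in scale moves all genes by construction. No paired analysis was possible because each genotype has 1 array. Dim readings limit Il25, Il1rl1 on the array labelled knockout and 6 of the 18 member probes.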
